A study of Mus musculus with 4 samples.

Results

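The 10 genes described here belong to the Nrf2 antioxidant program of 4 mouse mammary tumor cell lines. The rule lists them by name and not by a value, but they were chosen with earlier results of these data known. They are the transcription factor gene Nfe2l2, its inhibitor Keap1, and 8 genes for enzymes or a transporter, namely Nqo1, Hmox1, Srxn1, Txnrd1, Slc7a11, Gclc, Gclm and G6pdx. They are 10 of the 21090 genes in the deposited RNA sequencing (RNA-seq) table, and all 10 had a mean of at least 1 RPKM, as did 10871 genes in all. In RPKM a gene's reads are divided by its length in kilobases and by the size of the library. The lines come from cells of a primary mammary tumor, in a mouse that also had a lung metastasis. That mouse carried the mutant alleles Pik3ca H1047R and Trp53 R270H. Cre recombinase under the MMTV promoter, which is active in mammary epithelium but not only there, switched them on. By the paper's account, which describes 1 starting line, both controls and both knockouts share these alleles. The 2 controls (n = 2) were the parental line and a vector control line, and the 2 knockouts (n = 2) were lines edited by Cas9 in exon 3 or exon 2 of S100a4, whose product is a calcium-binding protein of the S100 family. Cas9 and the guide came by lentivirus, infected cells were selected in puromycin, and no source used here says that single clones were picked. There was 1 library per line. The titles give the cells as 307 in 3 libraries and as 308 in the exon 2 knockout, and whether 308 is another starting line is not stated. A difference between the groups can therefore not be told apart from a difference between single lines.

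Nrf2, the protein of Nfe2l2, pairs with small Maf proteins on antioxidant response elements and raises the transcription of genes that make glutathione, recycle thioredoxin, detoxify quinones and supply NADPH. Keap1 holds Nrf2 on a Cul3 ubiquitin ligase for degradation until oxidants or electrophiles modify it, so the activity of Nrf2 is set mostly by the amount of protein, which RNA-seq does not measure. Nqo1, Hmox1, Srxn1 and Gclm are widely used RNA readouts of that activity, and Hmox1 also answers to heme and to its repressor Bach1.

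To show the sequence context of these genes, the RefSeq promoters on GRCm38.p6 (from 250 bases before to 50 bases after each annotated start) were searched on both strands. The motifs were the antioxidant response element core TGACNNNGC, the Ap1 element TGACTCA and the element TGAGTCAGC of cap'n'collar and small Maf dimers, which by its letters always holds an Ap1 element. Entries were found for 8 of the 10 members, not for Hmox1 and Gclc. The core was in 12.4% of all 32851 promoters and in 5 of the 10 promoters searched for the members, 1 each for Nfe2l2, Gclm, Txnrd1, G6pdx and Srxn1. For Txnrd1, which has 3 of the 10 promoters searched for the members, the match lay in 1 of them. The Ap1 element was in 5.2% of all promoters and the cap'n'collar element in 0.414%, and Srxn1 was the 1 member with either, with Ap1 matches 102 and 45 bases before its start. The matched stretches are printed below 5′ to 3′ on the strand of the gene, and the capitals mark the match, which reads as the reverse complement of the core in Gclm, Txnrd1 and G6pdx and as the cap'n'collar element in Srxn1.
Srxn1, plus strand, chr2:152105453-152105513, match 45 bases before the start: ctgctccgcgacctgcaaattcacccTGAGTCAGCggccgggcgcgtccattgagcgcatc
Gclm, plus strand, chr3:122245397-122245457, match 134 bases before the start: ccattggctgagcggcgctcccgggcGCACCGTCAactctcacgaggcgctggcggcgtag
Txnrd1, plus strand, chr10:82859088-82859148, match 92 bases before the start: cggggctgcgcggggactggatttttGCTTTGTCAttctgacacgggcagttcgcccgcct
G6pdx, minus strand, chrX:74428903-74428963, match 57 bases before the start: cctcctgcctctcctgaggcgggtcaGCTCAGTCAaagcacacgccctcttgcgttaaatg
Nfe2l2, minus strand, chr2:75704869-75704913, match 240 bases before the start: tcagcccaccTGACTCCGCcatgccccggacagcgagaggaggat
The core match of Srxn1 lay 28 bases after its start. A match is a run of letters in a window and not a measured binding site, and no match in a window says nothing of sites farther away, such as enhancers.

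The totals behind the RPKM values, as recovered from those values, were between 22472024 and 31235456 reads. S100a4, the edited gene, had 3576 RPKM in parental cells, 4741 in vector control cells, 1136 with exon 3 edited and 1105 with exon 2 edited, a log2 change of −1.88 (SE 0.311, limma adjusted p = 0.0731). The paper reported truncating mutations in most S100a4 transcripts of the knockout lines and loss of the protein by Western blot. The lines are labelled as mammary tumor cells. Of 9 epithelial markers 7 were below 1 RPKM in every library, Epcam and Cdh1 among them, while Krt8 and Krt18 were present. Of 9 mesenchymal markers 0 were below 1 RPKM in every library, and Vim was between 1362 and 2418 RPKM. Thy1 was the lowest of them, at 1.51 RPKM in parental cells, 0 in vector control cells, 0 with exon 3 edited and 0.091 with exon 2 edited. Leukocyte markers summed to 3.55 and 4.93 RPKM in the controls and to 11.6 and 13.2 in the knockouts, nearly all from Cd68, with Cd3e at 0 in every library. The controls differed from each other in other genes too, with the collagen gene Col1a1 at 670 RPKM in parental cells and 6.93 in vector control cells. The part of this difference in the results below was not tested.

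The question for the members was whether losing S100a4 went with a change of the antioxidant program. The RNA of the factor itself was lower in both knockouts. Nfe2l2 (chr2:75675513-75704641, minus strand, GRCm38) was at 61.3 RPKM in parental cells, 49.3 in vector control cells, 30.8 with exon 3 edited and 40.7 with exon 2 edited, from 1298 to 3437 reads. The groups did not overlap, and their means were 55.3 ± 8.51 (SD, n = 2) and 35.8 ± 6.99. The log2 change of −0.62 (SE 0.310) did not pass the test in limma, which was fitted to all 10871 genes (adjusted p = 0.299). It was −0.23 once each library was corrected for coding GC content and length, and the groups then overlapped.

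Keap1 (chr9:21229730-21239361, minus strand), the adaptor that marks Nrf2 for degradation, had nearly the same level in all lines. It was at 48.5 RPKM in parental cells, 48.1 in vector control cells, 46.3 with exon 3 edited and 46.0 with exon 2 edited. Both knockouts were below both controls, but the counting intervals of all 4 values met, and the log2 change was −0.07 (SE 0.292, limma adjusted p = 0.92). The sign of this change turned under another scaling of the libraries, by the median ratio, to 0.05. After the correction for GC content and length it was −0.20, and both knockouts were still below both controls.

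The direct readouts of Nrf2 differed more between the lines of a group than between the groups. Nqo1 (chr8:107388225-107403206, minus strand), which reduces quinones, was at 17.7 RPKM in parental cells, 92.5 in vector control cells, 75.3 with exon 3 edited and 16.1 with exon 2 edited. The vector control and the exon 3 knockout were thus both high, the parental line and the exon 2 knockout both low, and the groups overlapped. The 95% counting interval was 16.1 to 19.4 in the parental line and 14.3 to 18.0 in the exon 2 knockout, so these 2 did not differ beyond counting error. The means of 55.1 ± 52.9 (SD, n = 2) in controls and 45.7 ± 41.9 in knockouts each hide nearly the full range, and the log2 change was −0.21 with an SE of 0.729 (limma adjusted p = 0.893).

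Hmox1 (chr8:75093621-75100589, plus strand), which breaks down heme, had the same order of lines, with a wider gap at the bottom. It had 74.1 RPKM in parental cells, 200.7 in vector control cells, 174.9 with exon 3 edited and 47.9 with exon 2 edited. The exon 2 knockout was lowest, at 0.646 of the parental level (counting interval 0.597 to 0.698), and the groups overlapped. The log2 change was −0.41 (SE 0.568, limma adjusted p = 0.713).

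Srxn1 (chr2:152105516-152111376, plus strand) encodes sulfiredoxin, which repairs over-oxidized peroxiredoxins. Its level was 10.6 RPKM in parental cells, 26.4 in vector control cells, 20.8 with exon 3 edited and 8.56 with exon 2 edited, from 90 to 314 reads. Again the vector control and the exon 3 knockout were the high pair and the groups overlapped, with a log2 change of −0.31 (SE 0.474, limma adjusted p = 0.745). Txnrd1 (chr10:82833951-82897712, plus strand), the cytosolic thioredoxin reductase, kept the same pair on top but over a narrow range. It was at 54.4 RPKM in parental cells, 74.9 in vector control cells, 69.2 with exon 3 edited and 57.4 with exon 2 edited (log2 change −0.02, SE 0.31, limma adjusted p = 0.984). That sign turned to 0.10 under median ratio scaling and to 0.12 after the correction for GC content and length.

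The genes for glutathione synthesis did not behave alike. Slc7a11 (chr3:49892526-50443614, minus strand), the cystine importer that feeds cysteine into glutathione, was at 5.10 RPKM in parental cells, 7.87 in vector control cells, 2.29 with exon 3 edited and 1.52 with exon 2 edited. Both knockouts were below both controls, with ratios of 0.448 (exon 3 knockout over parental), 0.291 (exon 3 knockout over vector control), 0.297 (exon 2 knockout over parental) and 0.193 (exon 2 knockout over vector control). The control mean was 6.49 ± 1.96 RPKM (SD, n = 2) and the knockout mean 1.90 ± 0.546. The log2 change of −1.35 (SE 0.373) had the smallest p of the 10 members, 0.00376 unadjusted, yet the limma adjusted p was 0.13 and it did not pass. The reads behind it were few in the knockouts, 93 and 59 against 276 and 346 in the controls.

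Gclm (chr3:122245557-122270732, plus strand), the modifier subunit of glutamate-cysteine ligase, was at 34.7 RPKM in parental cells, 72.6 in vector control cells, 41.6 with exon 3 edited and 22.4 with exon 2 edited. The groups overlapped, since the exon 3 knockout lay above the parental line, and the log2 change was −0.70 (SE 0.409, limma adjusted p = 0.367). Gclc (chr9:77754535-77794485, plus strand), the catalytic subunit, was at 21.3 RPKM in parental cells, 35.7 in vector control cells, 34.4 with exon 3 edited and 26.4 with exon 2 edited. Here both knockouts lay between the controls, with a log2 change of 0.12 (SE 0.342, limma adjusted p = 0.869).

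G6pdx (chrX:74409483-74429194, minus strand), which makes NADPH in the pentose phosphate pathway, set the parental line apart from the other 3. It was at 55.7 RPKM in parental cells, 103.4 in vector control cells, 100.1 with exon 3 edited and 96.8 with exon 2 edited. The log2 change was 0.37 (SE 0.342, limma adjusted p = 0.568), and without the parental line it was −0.07.

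**Figure D1:**
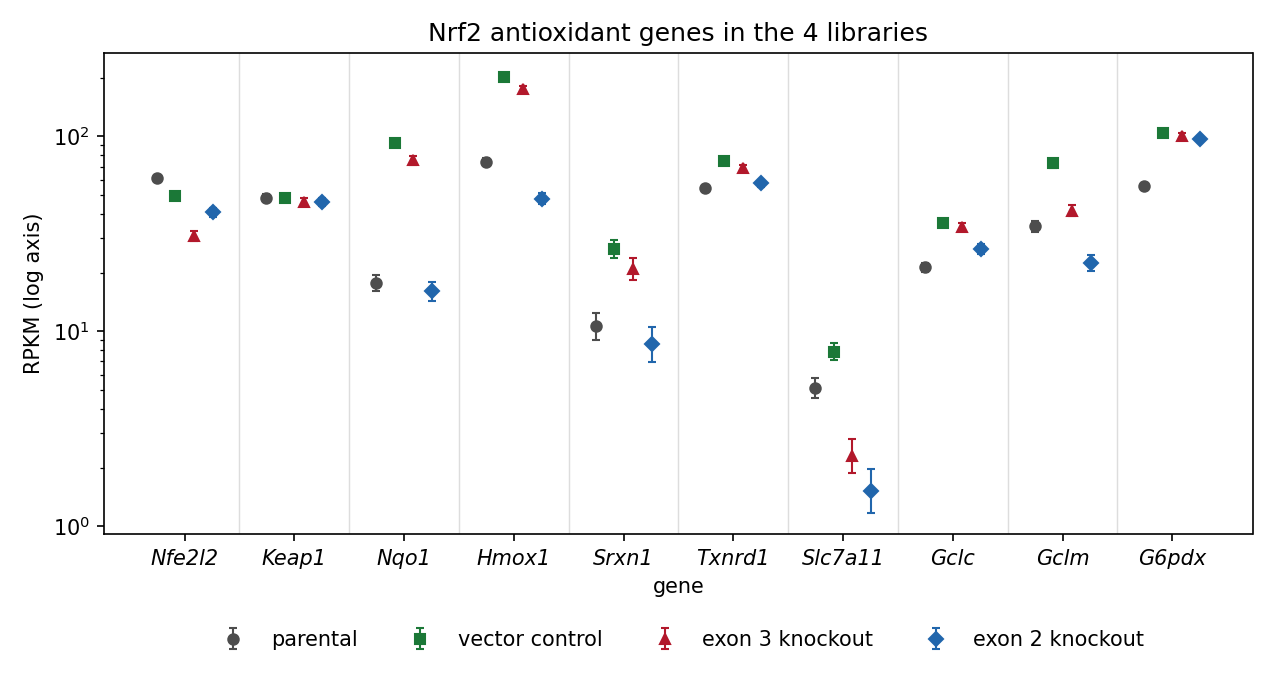
RPKM on a log axis for the 10 genes in the 4 libraries, with bars for the 95% counting interval (Wilson) of each library. Nqo1, Hmox1 and Srxn1 are high in the vector control and the exon 3 knockout and low in the parental line and the exon 2 knockout, Keap1 lies between 46.0 and 48.5 RPKM throughout, and both knockouts are below both controls for Slc7a11.

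The difference within the groups was then measured as the ratio of the vector control to the parental line and of the exon 3 to the exon 2 knockout. These ratios compare single libraries, and their intervals cover counting error only. For Nqo1 the ratio was 5.23 (95% exact interval 4.72 to 5.8) within the controls and 4.68 (4.13 to 5.32) within the knockouts. Hmox1 gave 2.71 (2.57 to 2.86) and 3.65 (3.40 to 3.93), and Srxn1 gave 2.49 (2.05 to 3.04) and 2.43 (1.89 to 3.13). The intervals of the 2 ratios met for Nqo1 and Srxn1 and not for Hmox1.

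The other enzymes and the transporter leaned the same way by less. Gclm had ratios of 2.09 within the controls and 1.85 within the knockouts, Gclc of 1.68 and 1.30, Slc7a11 of 1.54 and 1.51, and Txnrd1 of 1.38 and 1.20. G6pdx was 1.86-fold higher in the vector control than in the parental line and had a ratio of 1.03 (0.987 to 1.08) within the knockouts. All 8 were thus above 1 in both pairs, where 63.4% of all 10871 genes were above 1 within the controls, 45.6% within the knockouts and 29.1% in both. They had a median on the scale of RPKM + 1 of 1.95-fold within the controls and 1.54-fold within the knockouts. Nfe2l2 ran the other way, with ratios of 0.804 (0.762 to 0.848) and 0.757 (0.703 to 0.815). For Keap1 the ratios were 0.991 (0.937 to 1.05) and 1.01 (0.944 to 1.07). The lines with more RNA of the Nrf2 readouts were thus, within each group, the lines with less RNA of the factor.

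Across all 10871 genes, 3.34% were at least 2-fold higher in the vector control than in the parental line on the scale of RPKM + 1, against 4 of the 10 members (Nqo1, Hmox1, Gclm and Srxn1). Within the knockouts 2.43% of all genes were at least 2-fold higher in the exon 3 line, against 3 members (Nqo1, Hmox1 and Srxn1). These 3 were among the 34 genes, or 0.313%, that were 2-fold higher in both pairs. Such shares describe the members, which were chosen with earlier results of these data known, and are not a test. No member was 2-fold lower in either pair, but few genes were, 564 of 10871 within the controls and 279 within the knockouts. The median log2 ratio of the members was 0.80 within the controls, against 0.16 for all genes, and 0.38 within the knockouts, against −0.05. With median ratio scaling 3 members stayed 2-fold apart in each pair, Nqo1, Hmox1 and Srxn1, and with the correction for GC content and length it was these 3 within the controls and 2 within the knockouts, where Srxn1 was at 1.97-fold.

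**Figure D2:**
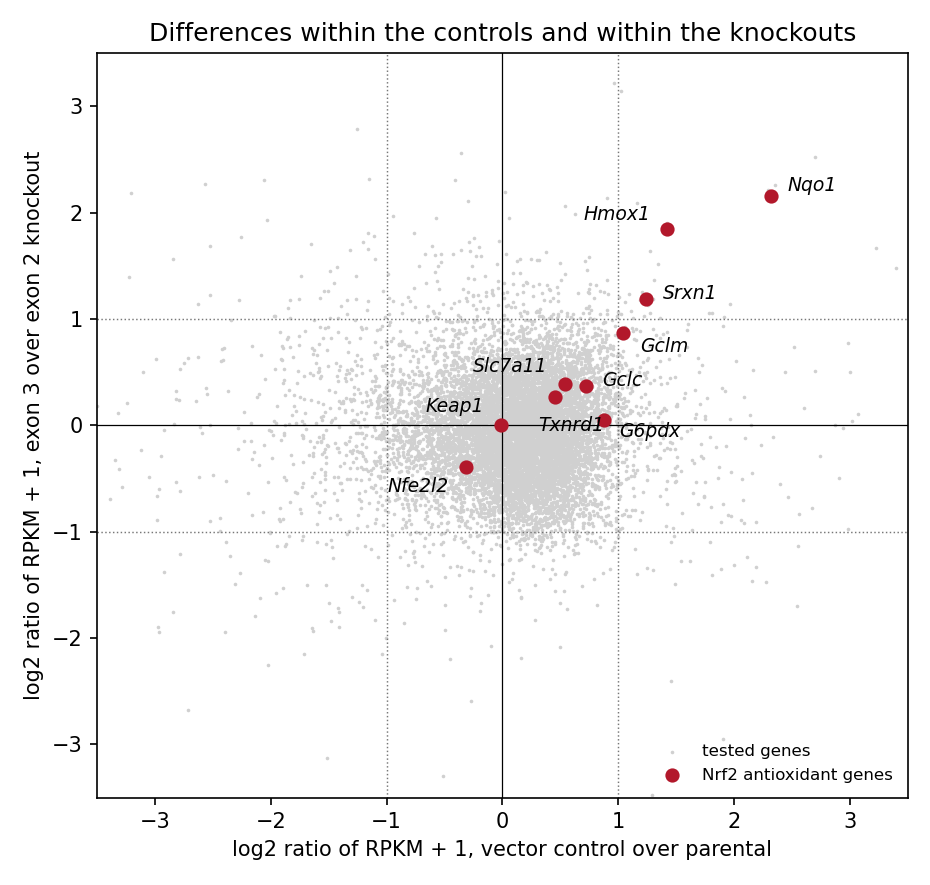
Log2 ratio of RPKM + 1 for the vector control over the parental line (horizontal axis) and for the exon 3 over the exon 2 knockout (vertical axis), with the 10871 tested genes in grey, the 10 members in red and dotted lines at 2-fold. Nqo1, Hmox1 and Srxn1 lie in the upper right corner beyond 2-fold in both pairs, Keap1 sits near 0, and 36 other genes fall outside the axes.

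Between the groups, 0 of the 10 members passed the test, where 2 of 10871 genes did (0.0184%). At an unadjusted p under 0.05, 1 member was lower in the knockouts (Slc7a11) and 0 were higher, against 13.8% of all genes lower and 5.32% higher. Both knockouts were below both controls for 3 members, Nfe2l2, Keap1 and Slc7a11, against 31.2% of all genes, and above both for 0 members, against 21.9%. The median log2 change of the members was −0.26 and that of all genes −0.08. The share of members with both knockouts lower was therefore near that of all genes. Scaling by the median ratio moved the median of all genes to 0.02 and that of the members to −0.15. The 3 members with groups apart were then Nfe2l2, Slc7a11 and, higher in the knockouts, G6pdx. After the correction for GC content and length the median was 0.05 for all genes and −0.21 for the members.

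The direction for most members depended on the choice of control. With both controls kept, the log2 change of Nqo1, Hmox1, Srxn1, Gclc and Txnrd1 also turned sign with the choice of knockout. All 10 were lower in both knockouts than in the vector control, where 47.3% of all genes were lower and 31.7% higher. Against the parental line only 3 members were lower in both knockouts, Nfe2l2, Keap1 and Slc7a11 (41.4% of all genes), and 3 were higher, Gclc, Txnrd1 and G6pdx (37.8% of all genes). The count of 10 fell to 6 with median ratio scaling, where 37.9% of all genes were lower, since Keap1, Gclc, Txnrd1 and G6pdx, each with a knockout close to the vector control, no longer counted. Without the parental line, 4 members passed the test in limma as lower in the knockouts, Nqo1 (adjusted p = 0.00725), Slc7a11 (0.0181), Hmox1 (0.0236) and Gclm (0.0258), where 788 genes passed in all. In that fit the vector control is alone in its group and is assumed to vary like the knockouts. Without the vector control, the log2 change of Nqo1 was 0.95 and that of Hmox1 0.30, and 0 members passed.

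**Figure D3:**
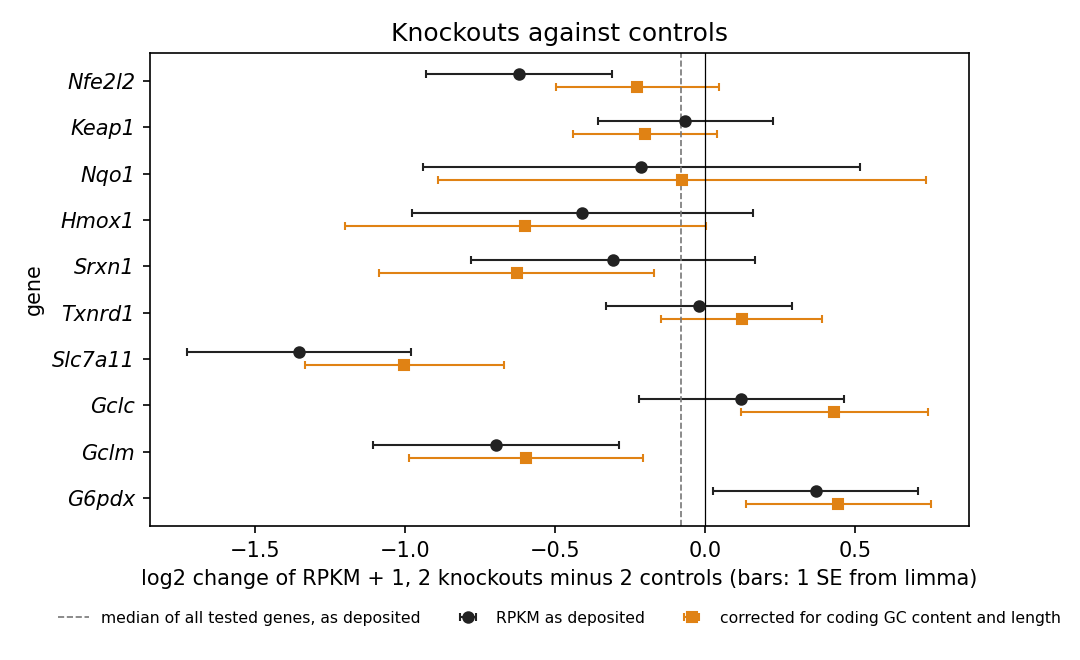
Log2 change of RPKM + 1 in the 2 knockouts against the 2 controls for each gene, with bars of 1 SE from limma, as deposited (black circles) and corrected for coding GC content and length (orange squares). The dashed line is the median of all genes at −0.08, Slc7a11 lies farthest from it at −1.35 as deposited, and the bar of Nqo1 is the widest.

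Since 2 members form 1 enzyme, and 2 others form a factor and its inhibitor, their ratios within a library were compared, which needs no scaling between libraries. RPKM is a value per length, so the ratio of 2 genes can be read as a ratio of levels on that scale. The Gclm over Gclc ratio was 1.63 in parental cells, 2.03 in vector control cells, 1.21 with exon 3 edited and 0.849 with exon 2 edited. Both knockouts were below both controls, with means of 1.83 ± 0.286 (SD, n = 2) in controls and 1.03 ± 0.256 in knockouts. The log2 difference was −0.84, with a two-sided exact permutation p of 0.33, the smallest that 2 libraries against 2 can give. It was −1.03 after the correction for GC content and length, and between −1.10 and −0.59 when a library was left out.

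For Keap1 over Nfe2l2 the ratio was 0.791 in parental cells, 0.976 in vector control cells, 1.5 with exon 3 edited and 1.13 with exon 2 edited. Both knockouts were above both controls, with a log2 difference of 0.57 (exact permutation p = 0.33). After the correction for GC content and length the difference was 0.02. The coding sequence of Keap1 is 60.8% GC and that of Nfe2l2 48.2%.

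**Figure D4:**
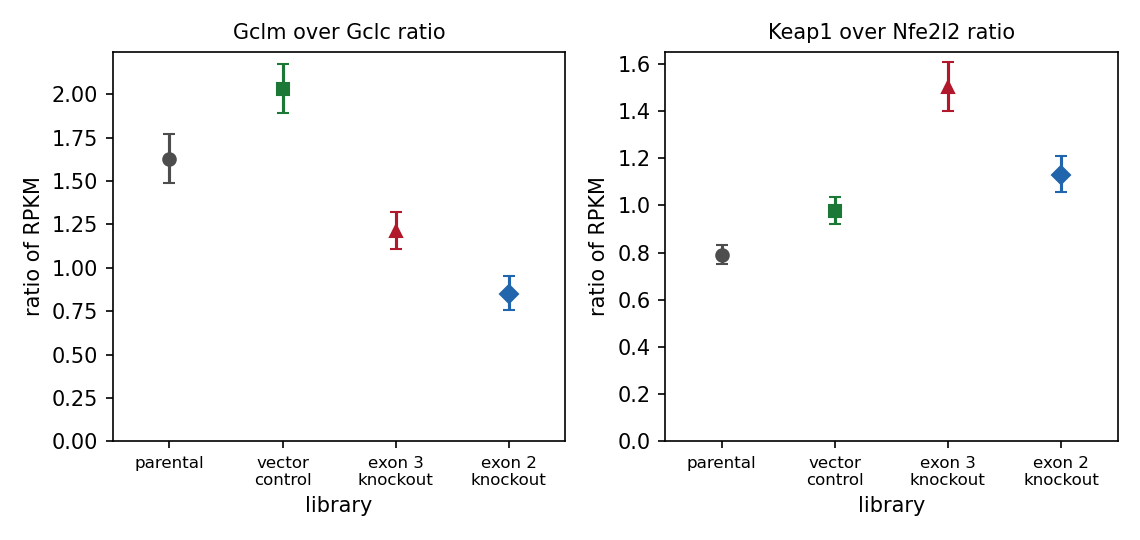
Ratio of RPKM within each library for Gclm over Gclc (left) and Keap1 over Nfe2l2 (right), with bars for the 95% exact counting interval. The Gclm over Gclc ratio is above 1.6 in both controls and below 1.25 in both knockouts, and the Keap1 over Nfe2l2 ratio is below 1 in both controls and above 1 in both knockouts.

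In level, Hmox1 was the highest of the 10 members in 3 libraries and G6pdx in the exon 2 knockout, while Slc7a11 was the lowest and Srxn1 the next lowest in every library. Nqo1 was at rank 3 in the vector control and the exon 3 knockout and at rank 8 in the parental line and the exon 2 knockout, and Nfe2l2 was at rank 2 in parental cells, 6 in vector control cells, 8 with exon 3 edited and 5 with exon 2 edited. Among all genes of the table Nqo1 ranked 1118 in the vector control and 1505 in the exon 3 knockout, against 5105 in the parental line and 5256 in the exon 2 knockout. Neighbours whose counting intervals met were G6pdx and Txnrd1 in the parental line, Txnrd1 and Gclm as well as Nfe2l2 and Keap1 in the vector control, Nqo1 and Txnrd1 as well as Keap1 and Gclm in the exon 3 knockout, and Hmox1 and Keap1 in the exon 2 knockout.

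Beyond the 10 members, 120 other genes of the pathway were listed in 8 groups, of which 102 were tested, and 0 of them passed the test. At an unadjusted p under 0.05, 13.8% of all tested genes were lower and 5.32% higher, the shares to set beside the counts of all 8 groups. The partners of Nrf2 and its turnover had 2 of 16 lower and 0 higher. These were Cul3, the scaffold of the ligase that Keap1 recruits, with a log2 change of −1.17 (adjusted p = 0.126), and the ubiquitin ligase gene Trim21, at −1.23, whose controls were far apart at 7.68 RPKM in parental cells and 24.4 in vector control cells. For Cul3, whose coding sequence is 39.9% GC, the change was −0.37 after the correction for GC content and length and no longer had an unadjusted p under 0.05.

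Glutathione synthesis and peroxidases had 2 of 12 higher and 1 lower. Slc3a2, the heavy chain that pairs with the product of Slc7a11 at the membrane, was at 296 RPKM in parental cells, 306 in vector control cells, 619 with exon 3 edited and 536 with exon 2 edited. Its log2 change of 0.93 (limma adjusted p = 0.154) was opposite in sign to that of Slc7a11. The peroxidase genes Gpx1 (log2 change 0.81) and Gpx8 (−0.95) were the others. NADPH supply had 2 of 14 higher, Tkt (0.72) and Idh2 (0.65), and 2 lower, Idh1 (−1.33) and Me1 (−0.72). The pair of isocitrate dehydrogenases, mitochondrial Idh2 and cytosolic Idh1, thus had opposite signs.

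Iron storage and export had 2 of 3 higher, both ferritin genes. Fth1 was at 4764 RPKM in parental cells, 6185 in vector control cells, 19957 with exon 3 edited and 10283 with exon 2 edited, a log2 change of 1.40 (limma adjusted p = 0.13). Ftl1, at 1.13 (adjusted p = 0.224), was 2.32-fold higher in the vector control than in the parental line and 2.39-fold higher in the exon 3 than in the exon 2 knockout, which was close to the vector control at 205 against 219 RPKM. Ferritin genes have many near-identical pseudogenes, and how reads shared with those were counted is not stated, so both values are uncertain.

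The remaining groups were mixed. Thioredoxins, peroxiredoxins and sestrins had 2 of 18 higher, Txn2 (1.23) and the thioredoxin inhibitor Txnip (1.15), and 1 lower, Msrb3 (−0.79). Glutathione transferases had 1 of 17 higher, Gsto1 (0.68), and 1 lower, Gstm7 (−0.97), a member of a family with near-identical copies. Superoxide dismutases and catalase had 1 of 4 higher, mitochondrial Sod2 (0.77). Quinone, carbonyl and drug handling had 2 of 18 higher, Cbr3 (1.05) and Ephx1 (0.94). The median log2 change was between 0.01 and 0.19 in 7 of the 8 groups and 1.13 for the 3 iron genes. After the correction for GC content and length, Gpx1, Gpx8, Idh2, Me1, Ftl1 and Gsto1, like Cul3, no longer had an unadjusted p under 0.05.

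Within the groups, the vector control was above the parental line for 72 of the 102 genes (70.6%, against 63.4% of all genes) and the exon 3 above the exon 2 knockout for 69 (67.6%, against 45.6%). The median log2 ratios were 0.31 and 0.18, against 0.16 and −0.05 for all genes. At least 2-fold higher were 8 (7.84%, against 3.34% of all genes) within the controls and 5 (4.9%, against 2.43%) within the knockouts. Some genes were more than 2-fold lower. The log2 ratios ran from −2.44 to 1.66 within the controls and from −3.48 to 2.31 within the knockouts.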

How the data were processed

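RNA-seq was done on 4 mouse cell lines, 1 library each. The authors deposited RPKM per gene, without log transformation or scaling between libraries. The submitters' processing notes name GRCm38, CASAVA 1.8 and GSNAP; the gene model and the counting rule are not given in the sources used here. All value columns were matched to a library by its title, with 0 left over. Whole reads were recovered from the steps of low RPKM values (tolerance 0.001 reads), for 100% of genes above 0. That share includes genes seen in only 1 library, which count as whole by rule. GENCODE M21 coding lengths set the absolute scale. Of the tested genes with a coding GC content, 59% had a recovered length equal to an annotated coding length. Wilson and exact 95% intervals on these reads cover counting error only.

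Values were tested as log2(RPKM + 1), which understates changes of low genes. Genes with a mean of at least 1 RPKM (10871) were fitted with limma 3.58.1 with an intensity trend in R 4.3.3, 2 knockouts against 2 controls, with Benjamini-Hochberg adjustment over all of them and a threshold of 0.05. The script was tested on simulated data. Alternatives were a pseudocount of 0.1, no filter or a filter at 5 RPKM, median ratio and quantile scaling, limma without trend or with a robust prior, voom on recovered reads, a spline correction for coding GC content and length, a 3-fold threshold and leaving out each library. Libraries are separate lines, so p-values measure the spread between lines. The remaining steps ran in Python 3.11.15 (scipy 1.17.1, numpy 2.4.6, pandas 2.3.3). Coordinates come from GENCODE M21, which held 20972 of the symbols (99.4%).

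The members and gene lists were chosen with earlier results of these data known. Every member is named. In each other list the genes named had an unadjusted p under 0.05, at most the 2 higher and the 2 lower with the largest log2 change.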

Additional observations from a re-analysis of the deposited data

How the results depend on the processing

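No paired analysis was possible because the replicate numbers follow the order of deposition and pair no lines. The number of genes that passed the test depended on the fit: 2 in the analysis reported, 1 with a pseudocount of 0.1 or quantile scaling, 0 with median ratio scaling, no filter, voom or the correction for GC content and length, 32 with a filter at 5 RPKM, 285 with a robust prior, and 3 to 788 with a library left out (451 without the vector control, 788 without the parental line, 4 without the exon 3 and 3 without the exon 2 knockout). The members passing were 0 throughout, and 0 to 4 with a library left out, the 4 being without the parental line. Of the unadjusted calls 27.8% were higher in the knockouts as reported, 47.9% with median ratio scaling, 47.5% with quantile scaling and 48.7% after the correction for GC content and length.

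With all libraries kept, 86 of 89 values of single members kept their direction and their side of the threshold. The exceptions were Keap1 at 0.047 and Txnrd1 at 0.10 with median ratio scaling, and Txnrd1 at 0.12 after the GC and length correction. The adjusted p of Slc7a11 was between 0.0526 and 0.328 over these alternatives, and it was not tested with the filter at 5 RPKM. Leaving out a library gave log2 changes from −1.37 to 0.95 for Nqo1, −1.33 to 0.52 for Hmox1, −0.93 to 0.31 for Srxn1, −0.24 to 0.48 for Gclc, −0.25 to 0.21 for Txnrd1 and −0.071 to 0.81 for G6pdx, while Gclm (−1.22 to −0.17), Slc7a11 (−1.62 to −1.09), Nfe2l2 (−0.82 to −0.43) and Keap1 (−0.07 to −0.06) kept their sign. The median of the members was between −0.70 and 0.26, above 0 without the vector control (0.26) or the exon 2 knockout (0.20). Members with groups apart numbered 3 to 10. Without the parental line all 10 were lower in the knockouts, against 47.3% of all genes lower and 31.7% higher. Without the vector control 3 were lower and 3 higher, against 41.4% and 37.8% of all genes. Without the exon 3 knockout 7 were lower and without the exon 2 knockout 3. The share of all genes was not computed for these 2 cases. It cannot be below the 31.2% found with both knockouts kept, so nothing is read from these counts.

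At 3-fold, 1 member was higher in the vector control than in the parental line, in place of 4 at 2-fold. The Keap1 over Nfe2l2 log2 difference was 0.36 to 0.77 with a library left out. Alternatives chosen after seeing the data were both corrections applied to the pairs of libraries and to single controls: members below the vector control numbered 6 with median ratio scaling and 5 after the GC and length correction, and members above it 2 and 1, in place of 10 and 0. Of all genes, 37.9% and 35.8% were below the vector control with these corrections, and 40.7% and 39.2% above it. The cause was not tested. With 1 library per line, neither group has replicates of a line.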

Other observations

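Some other genes that answer to Nrf2 were, like Nqo1, higher in the vector control and the exon 3 knockout than in the parental line and the exon 2 knockout. They were chosen after their values were seen, from the lists of pathway genes, and so support nothing. Sqstm1, whose product p62 binds Keap1 and which is itself induced by Nrf2, was at 332 RPKM in parental cells, 817 in vector control cells, 947 with exon 3 edited and 504 with exon 2 edited, ratios of 2.46 within the controls and 1.88 within the knockouts. Pgd, the next NADPH-producing step after the product of G6pdx, had ratios of 2.11 and 1.49, unlike G6pdx, which was nearly level within the knockouts. The glutathione reductase gene Gsr had ratios of 1.85 and 1.51, and Osgin1, an oxidative stress response gene, 1.90 and 1.96. Unlike for Nqo1, the exon 2 knockout was above the parental line for Sqstm1 and Pgd. For Gsr they were level, at 21.9 RPKM in the exon 2 knockout and 21.7 in the parental line.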
